A study of Mus musculus with 2 samples.

Results

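The genes described here make up the sterol and fatty acid synthesis programme that is controlled by the SREBP transcription factors. The members were listed by name from the pathway, and all 29 members were found among the 30084 genes of the deposited count table. The set holds 18 enzymes of sterol synthesis, 5 SREBP regulators, the sterol carrier gene Stard4 and 5 genes of fatty acid synthesis. Of the sterol enzymes, 7 act early, from acetyl-CoA to farnesyl diphosphate, and 11 act from squalene to cholesterol. Levels were compared across the lineages of the tissue, across macrophage and fibroblast states, and between cycling and other macrophages.

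The cells were the stromal vascular fraction of epididymal fat, which is what remains of digested fat tissue once the adipocytes are removed. They came from male C57BL/6J animals, Mincle-deficient and wild-type, and both genotypes had 15 weeks of high-fat feeding, so no lean animal is included. Mincle, encoded by Clec4e, is a lectin receptor of myeloid cells. Suspensions were stained with hashtag antibodies and pooled, 20000 cells were loaded on a microwell system (BD Rhapsody), and 2 libraries, transcripts and hashtags, were made from the pool by TAS-Seq. No label gives the genotype or the number of animals behind a hashtag, so genotypes were not compared, and the values below average over both. Hashtags A0309, A0310, A0311 and A0312 divide a single pool and cannot serve as replicates of any group, which left no basis for a test.

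Sterol synthesis runs from acetyl-CoA through mevalonate and farnesyl diphosphate to squalene, which is closed to a ring and trimmed to cholesterol. When membrane sterol is low, SCAP carries SREBP precursors from the endoplasmic reticulum to the Golgi, where proteases release the active factor, and INSIG proteins hold the complex back when sterol is high. SREBP-2, from Srebf2, mainly drives the sterol enzymes, while SREBP-1, from Srebf1, mainly drives fatty acid synthesis. SREBPs bind sterol regulatory elements and act together with NF-Y and Sp1, which bind near them. In fat tissue, fatty acid synthesis is best known from adipocytes, and macrophages of obese fat are known for taking up lipid from their surroundings.

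Promoter windows of RefSeq (GRCm38.p6), from 250 bases before to 50 bases after a start listed for a gene, were available for 23 of the 29 members. The absent members were Fdps, Fdft1, Sqle, Stard4, Scd1 and Scd2. Both strands were searched for TCACNCCAC (a sterol regulatory element), CCAAT (NF-Y) and GGGCGG (Sp1), and no match overlapped a match of another motif. CCAAT was present in 19 of the 23 genes (82.6%), against 41.1% of all 27025 genes with a window, and GGGCGG was present in 19 of 23 (82.6%), against 38.2% of all genes. The sterol element in this spelling was present in 1 of 23, Hmgcs1, against 1.44% of all genes. Among the fatty acid genes with a window, Acaca, Fasn and Elovl6, CCAAT was present in Fasn only and GGGCGG in none. The only Acaca window (chr11:84195188-84195487) lies inside the gene, which begins at 84129672 on the plus strand in the GENCODE vM21 annotation. It therefore does not describe the letters at that first start. A match describes the letters of a window, and its absence says nothing of the factor.

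The 250 bases before the start are given for 5 members. Hmgcs1 (HMG-CoA synthase) is shown as the member whose window held all 3 motifs, Cyp51 (lanosterol demethylase) and Msmo1 (methylsterol monooxygenase) as sterol enzymes that were lower in endothelial-like cells, and Fasn (fatty acid synthase) and Elovl6 (a fatty acid elongase) as genes that were lower in macrophage-like cells. Capitals mark every match of the motifs on either strand. The windows are chr13:119690101-119690350 on the plus strand for Hmgcs1, chr5:4104698-4104947 on the minus strand for Cyp51, chr8:64733579-64733828 on the minus strand for Msmo1, chr11:120824548-120824797 on the minus strand for Fasn and chr3:129532136-129532385 on the plus strand for Elovl6, all in GRCm38.p6, and each sequence reads 5′ to 3′ along its gene.
Hmgcs1: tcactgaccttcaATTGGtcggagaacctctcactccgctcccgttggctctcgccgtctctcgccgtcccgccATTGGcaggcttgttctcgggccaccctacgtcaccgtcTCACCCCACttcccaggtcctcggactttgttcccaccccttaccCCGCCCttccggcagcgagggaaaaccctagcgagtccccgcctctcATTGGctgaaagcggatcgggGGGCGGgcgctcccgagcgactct
Cyp51: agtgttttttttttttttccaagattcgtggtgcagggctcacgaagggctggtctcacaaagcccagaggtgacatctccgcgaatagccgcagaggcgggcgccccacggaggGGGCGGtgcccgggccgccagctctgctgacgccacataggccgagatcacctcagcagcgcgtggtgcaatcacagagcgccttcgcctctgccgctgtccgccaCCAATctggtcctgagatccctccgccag
Msmo1: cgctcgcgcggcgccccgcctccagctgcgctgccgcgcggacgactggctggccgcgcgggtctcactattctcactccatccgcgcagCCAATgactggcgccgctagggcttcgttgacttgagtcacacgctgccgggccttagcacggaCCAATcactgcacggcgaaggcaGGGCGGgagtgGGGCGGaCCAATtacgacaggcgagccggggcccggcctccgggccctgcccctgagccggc
Fasn: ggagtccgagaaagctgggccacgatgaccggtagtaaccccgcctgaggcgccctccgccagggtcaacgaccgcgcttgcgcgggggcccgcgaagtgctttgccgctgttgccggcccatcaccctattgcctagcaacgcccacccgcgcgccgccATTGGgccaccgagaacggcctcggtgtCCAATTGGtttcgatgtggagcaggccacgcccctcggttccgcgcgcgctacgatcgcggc
Elovl6: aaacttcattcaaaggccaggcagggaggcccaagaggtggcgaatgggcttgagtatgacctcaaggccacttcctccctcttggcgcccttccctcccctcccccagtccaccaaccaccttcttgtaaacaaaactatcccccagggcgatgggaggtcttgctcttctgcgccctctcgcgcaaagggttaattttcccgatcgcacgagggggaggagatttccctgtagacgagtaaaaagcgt
In Hmgcs1 the sterol element began 137 bases before the start. Msmo1 held 3 CCAAT and 2 GGGCGG matches in this stretch. Fasn held 3 CCAAT matches, of which a pair on opposite strands share bases. Elovl6 held none of the motifs.

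The table holds counts of 15741 cells, and the median cell had 34182 counts over 4503 genes. The nature of a count, read or molecule, was not given in the sources used here. After filtering, 15192 cells that the authors had assigned to a hashtag remained, from 3255 (A0309) to 4605 (A0312) per hashtag, with medians from 33483 to 35489 counts. Named from marker genes, they were 8317 macrophage-like, 3518 fibroblast-like, 875 endothelial-like, 629 monocyte-like, 382 T-cell-like, 230 mural-like and 143 dendritic-cell-like cells, and 1035 cells in 5 clusters stayed unnamed. Depth differed between classes, with medians of 41439 counts in macrophage-like, 35405 in fibroblast-like, 12924 in endothelial-like and 10376 in T-cell-like cells. The T-cell-like class also held NK-cell markers (a summed 1085 CPM over 5 genes) and macrophage markers (2850 CPM over 8 genes, against 338 CPM in endothelial-like cells), and their part in its levels was not tested. A list of 6 adipocyte genes summed to 12.6 CPM in macrophage-like, 19.8 CPM in fibroblast-like, 27.5 CPM in endothelial-like and 85.1 CPM in mural-like cells. Of these, Plin1 made up 10.2, 12.2, 15.6 and 63.3 CPM in the same order of classes. Adipoq was at 0.36 CPM in macrophage-like, 0.14 CPM in fibroblast-like and 1.91 CPM in endothelial-like cells, with 0 counts in mural-like cells. Cidec, Lep, Retn and Plin4 were at 3.67, 2.75, 1.55 and 1.98 CPM in endothelial-like cells, against 0.73, 0.44, 0.51 and 0.37 CPM in macrophage-like cells. The part of adipocyte RNA in the levels below was not tested.

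Levels are CPM, the share of a gene in the counts summed over all cells of a class, scaled to a common total, and 95% exact Poisson intervals are given where they matter and cover counting error only. CPM takes no account of transcript length, so levels are compared between classes and not between genes. A member was called higher or lower where the log2 ratio of CPM plus 1 was at least 1 in size, with the same sign, both pooled and within each hashtag that held 20 or more cells of the 2 classes. Beside the counts stands the share of all genes, at 5 CPM or more in either class, that the same rule called.

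Across the 7 named classes, fatty acid and sterol genes were ordered differently. Fibroblast-like cells had the highest level of 12 of the 29 members, and macrophage-like cells had the lowest level of 4 of the 5 fatty acid genes. The sterol enzymes were lowest in dendritic-cell-like cells for 7 of the 18 genes, in endothelial-like cells for 5 and in mural-like cells for 3. The ratio of the highest to the lowest class ran from 1.5 for Tm7sf2, a sterol reductase, to 31.3 for Scd1, with a median of 3.69 over the members. The highest class was clear of the second by its interval for 17 members and was the same in all 4 hashtags for 8 of them, which were Fdft1, Msmo1, Hsd17b7, Ebp, Srebf2, Insig2, Scd1 and Scd2. The order of classes was not computed over all genes, so these counts describe the members and cannot be set against other genes.

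**Figure D1:**
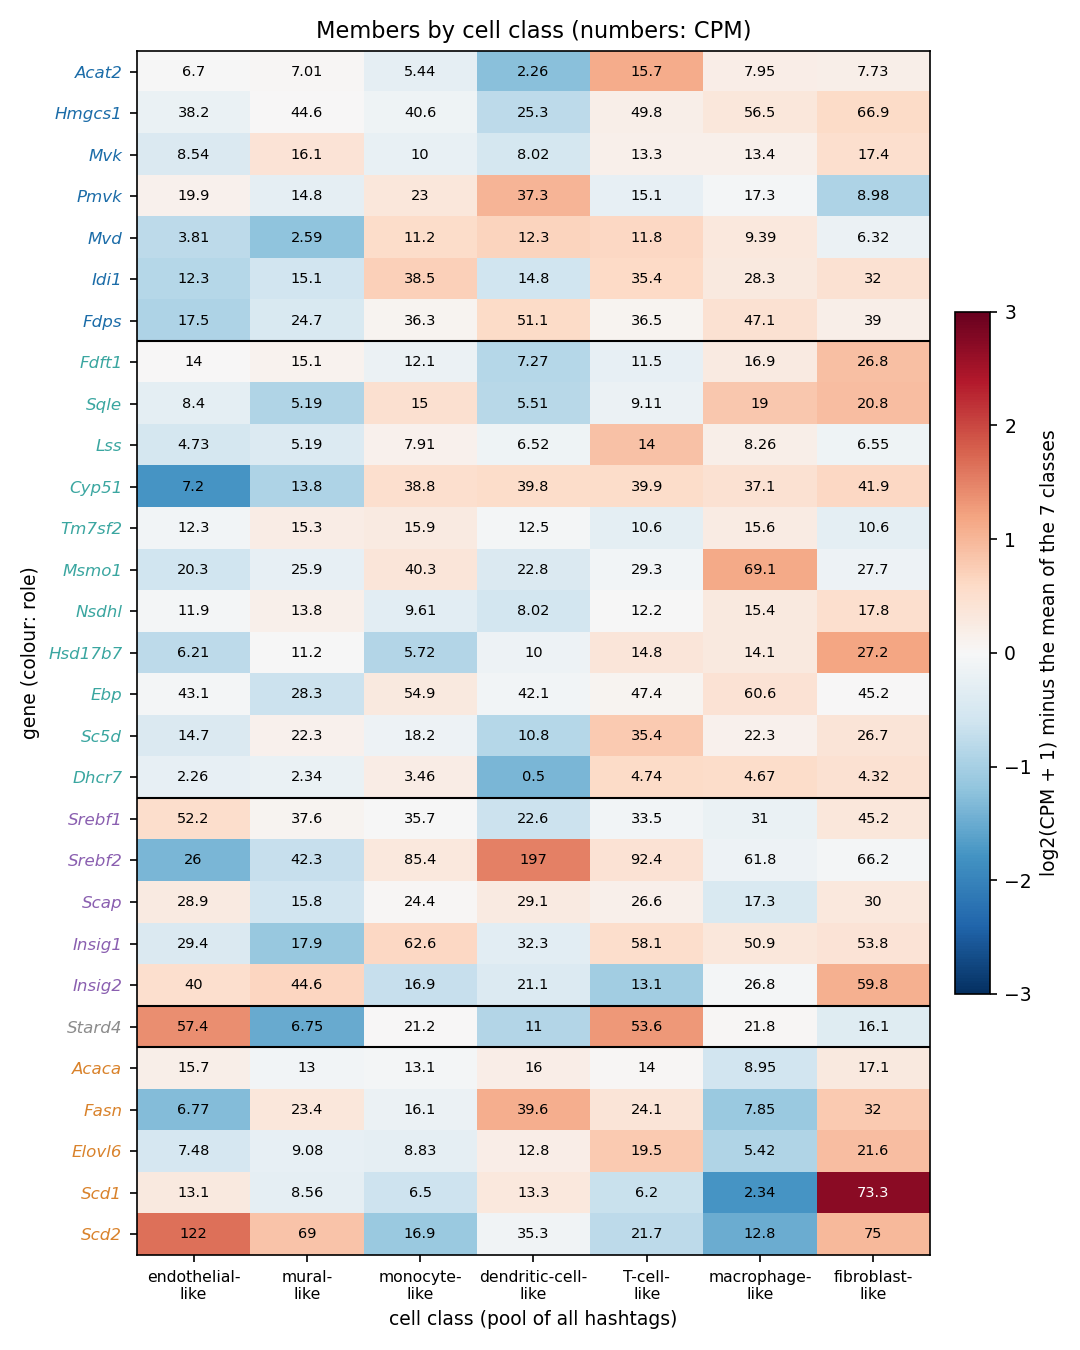
Level of the 29 members in 7 cell classes. Rows are genes grouped by role, columns are classes, the printed number is the pooled CPM and the colour is log2(CPM + 1) minus the gene's mean over the classes. The macrophage-like column is low over the fatty acid genes, the endothelial-like and dendritic-cell-like columns are low over many sterol enzymes, and Srebf2 is highest in dendritic-cell-like cells at 197 CPM.

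Summed over the 18 sterol enzymes, the level was 463 CPM in macrophage-like cells, 434 CPM in fibroblast-like cells, 407 CPM in T-cell-like cells and 387 CPM in monocyte-like cells. It was 317 CPM in dendritic-cell-like, 283 CPM in mural-like and 252 CPM in endothelial-like cells. Over hashtags the macrophage-like sums lay between 421 and 548 CPM and the fibroblast-like sums between 349 and 557 CPM, so these neighbours overlapped. Endothelial-like cells, at 217 to 270 CPM, lay below both. The 5 fatty acid genes summed to 37.4 CPM in macrophage-like cells (33.4 to 41.3 over hashtags), 61.4 CPM in monocyte-like cells (48.9 to 69.0), 165 CPM in endothelial-like cells (146 to 200) and 219 CPM in fibroblast-like cells (193 to 229). These ranges did not overlap, except that the highest endothelial-like hashtag exceeded the lowest fibroblast-like one. T-cell-like cells were at 85.5 CPM (63.2 to 133), dendritic-cell-like cells at 117 CPM (95.9 to 135) and mural-like cells at 123 CPM (94.8 to 159), and their ranges overlapped those of neighbouring classes. Scd2 alone made up 122 CPM of the endothelial-like sum.

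The regulators did not share an order. Srebf2 stood at 197 CPM in dendritic-cell-like cells (95% interval 184 to 212, from 143 cells), at 92.4 CPM in T-cell-like, 85.4 CPM in monocyte-like and 61.8 CPM in macrophage-like cells, and at 26.0 CPM in endothelial-like cells (23.4 to 28.8), the lowest class. In the same dendritic-cell-like cells the sterol enzymes Hmgcs1, Sqle and Dhcr7 were at 25.3, 5.51 and 0.50 CPM, while Pmvk (phosphomevalonate kinase) and Fdps (farnesyl diphosphate synthase) were at 37.3 and 51.1 CPM, the highest levels of these genes in any named class, although for Fdps the interval overlapped that of macrophage-like cells. This class held 866 CPM of 8 dendritic cell markers, and also macrophage (906 CPM over 8 genes) and monocyte markers (1025 CPM over 7 genes). Its 13 mitosis genes summed to 939 CPM, against 557 CPM in macrophage-like cells, and the part of these in its levels was not tested. Srebf1 was highest in endothelial-like cells (52.2 CPM) and Insig1, an anchor of the SREBP complex, in monocyte-like cells (62.6 CPM), where its interval overlapped that of T-cell-like cells (58.1 CPM). Scap, the SREBP escort, ranged from 15.8 CPM in mural-like to 30.0 CPM in fibroblast-like cells. Stard4, which moves cholesterol between membranes, stood at 57.4 CPM in endothelial-like and 53.6 CPM in T-cell-like cells, whose intervals overlapped, and at 6.75 CPM in mural-like cells.

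In macrophage-like over fibroblast-like cells, all 5 fatty acid genes had ratios below 0 (median log2 ratio -1.90), and the sterol enzymes were divided, 9 above and 9 below 0 (median -0.04). The median over all genes tested was -0.04. The rule called 5 members lower, where it called 19.1% of all 12093 genes lower, and no member higher, where it called 14.0% of all genes higher. Scd1, the stearoyl-CoA desaturase of lipogenic tissues, was at 2.62, 2.45, 2.12 and 2.29 CPM in macrophage-like cells of A0309, A0310, A0311 and A0312, against 63.8, 85.0, 77.8 and 64.3 CPM in fibroblast-like cells. The classes were far apart in every hashtag, and the log2 ratio was -4.47 (-4.66 to -4.16 over hashtags). Scd2, its paralog, was at 14.0, 14.6, 12.7 and 11.0 CPM in macrophage-like cells, against 83.3, 74.8, 77.4 and 62.6 CPM in fibroblast-like cells, a log2 ratio of -2.46.

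Fasn was at 9.08, 8.92, 8.07 and 6.27 CPM in macrophage-like cells, against 36.5, 31.2, 30.2 and 29.8 CPM in fibroblast-like cells (log2 ratio -1.90). Elovl6, which extends palmitate, was at 5.42 CPM in macrophage-like and 21.6 CPM in fibroblast-like cells, with hashtag log2 ratios from -1.98 to -1.65. Acaca, the acetyl-CoA carboxylase of the first committed step, was at 8.95 CPM in macrophage-like and 17.1 CPM in fibroblast-like cells and was not called (-0.86). Thus 4 of the 5 fatty acid genes were called lower, where the rule called 19.1% of all genes lower. Insig2 was the other call, at 24.6, 25.7, 28.1 and 27.8 CPM in macrophage-like cells, against 59.1, 58.3, 60.9 and 61.2 CPM in fibroblast-like cells (log2 ratio -1.13), and its hashtag levels did not overlap either. Its ratio lay close to the threshold. The call was lost when cells called multiplets from their hashtag counts were left out (Insig2, macrophage-like over fibroblast-like, -1.09), and when all cells without a clear single hashtag were left out (-1.13), where 18.8% and 17.7% of all genes were called lower, and with a pseudocount of 5 in place of 1 CPM (-1.03; 15.5%).

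Msmo1 had the highest CPM of the uncalled members. It was at 76.2, 61.1, 76.3 and 64.8 CPM in macrophage-like cells, against 39.2, 19.1, 28.7 and 24.4 CPM in fibroblast-like cells (log2 ratio 1.29). Every macrophage-like value lay above every fibroblast-like value, but the ratio in A0309 was 0.94, and without that hashtag Msmo1 was called higher, as were 14.6% of all genes. Of 29 other pathway genes, 3 were called higher, Abcg1 (4.23), which exports cholesterol, Soat1 (2.29), which esterifies it, and Hsd17b12 (1.51), an elongation enzyme. Another 6 were called lower, led by Me1 (-3.63), the NADPH-producing malic enzyme, Fads2 (-3.36), a fatty acid desaturase, and Acacb (-1.58), a second acetyl-CoA carboxylase. A clear single hashtag was found for 94.1% of the macrophage-like but 19.2% of the fibroblast-like cells, and 3.69% and 43.3% were called multiplets from hashtag counts. The fatty acid calls were as many without those cells.

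**Figure D2:**
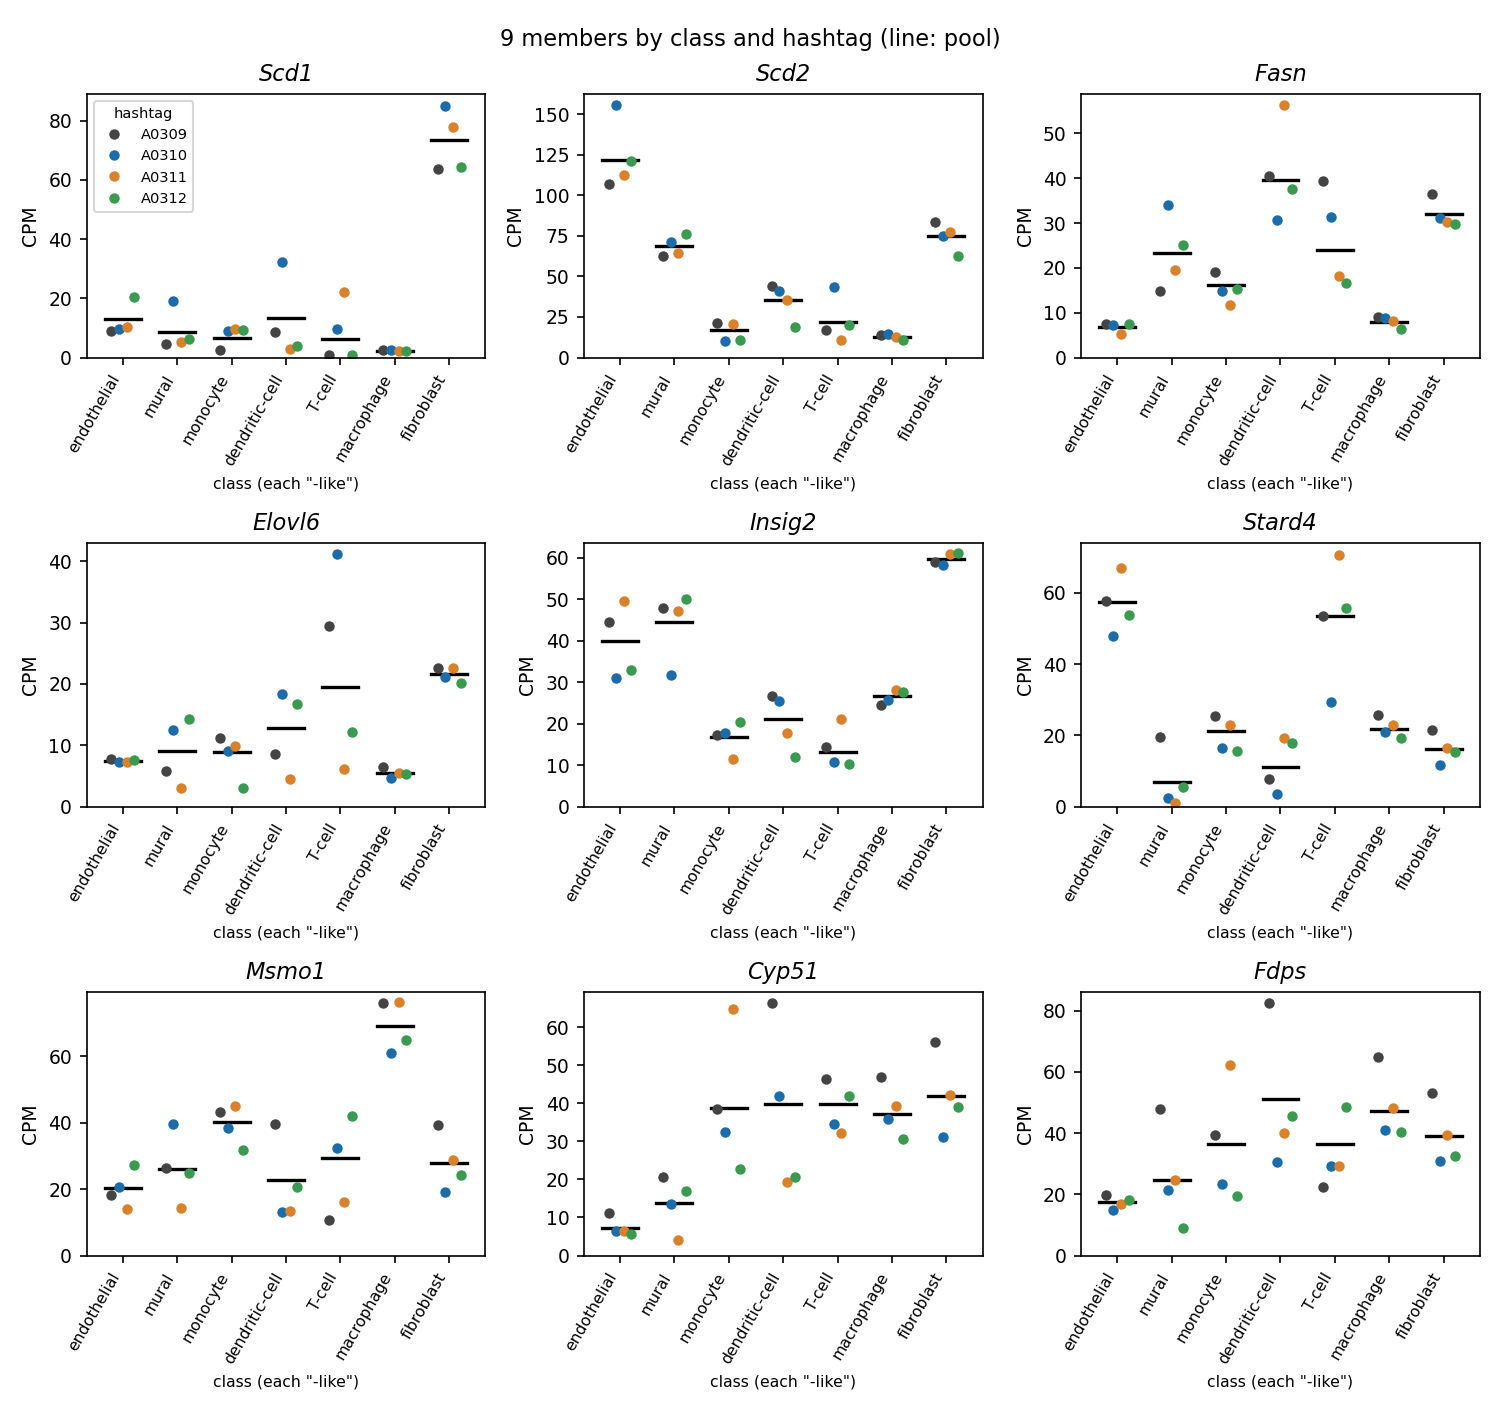
Level of 9 members by cell class and hashtag. Each panel is a gene, the vertical axis is CPM on a linear scale from 0, points are the 4 hashtags and the black bar is the pooled value of a class. Scd1 and Fasn are low in all 4 hashtags of the macrophage-like class, Scd2 is highest in all 4 of the endothelial-like class, and Cyp51 is low in all 4 of that class.

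In endothelial-like over macrophage-like cells the medians of the sterol enzymes and of the fatty acid genes lay on opposite sides of 0. Sterol enzymes had ratios below 0 for 17 of 18 genes, with a median of -0.64, against 0.35 over all genes tested. Fatty acid genes had a median of 0.75, with 4 of 5 above 0, of which Scd1 and Scd2 were called, and Fasn below 0. The rule called 3 members lower, where it called 9.65% of all 12255 genes, and 3 members higher, where it called 20%, or 29.6% in either direction. Cyp51 was at 11.1, 6.38, 6.55 and 5.59 CPM in endothelial-like cells of the 4 hashtags, against 46.9, 35.8, 39.4 and 30.7 CPM in macrophage-like cells (log2 ratio -2.22). Msmo1 was at 18.3, 20.7, 14.1 and 27.3 CPM in endothelial-like cells, against 76.2, 61.1, 76.3 and 64.8 CPM in macrophage-like cells (-1.72). Fdps was at 17.5 CPM in endothelial-like and 47.1 CPM in macrophage-like cells, with hashtag ratios from -1.66 to -1.11. The hashtag levels of these 3 genes, which the rule had already called, did not overlap between the classes. The share of all genes without such overlap was not computed, here or for other genes described in this way.

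Scd2 was at 107, 156, 112 and 121 CPM in endothelial-like cells, against 14.0, 14.6, 12.7 and 11.0 CPM in macrophage-like cells, a log2 ratio of 3.15. Scd1 was at 8.80, 9.57, 10.2 and 20.6 CPM in endothelial-like cells, against 2.62, 2.45, 2.12 and 2.29 CPM in macrophage-like cells (2.07). Stard4 was at 57.7, 47.9, 66.9 and 53.7 CPM in endothelial-like cells, against 25.7, 21.0, 22.8 and 19.2 CPM in macrophage-like cells (1.36). Fasn, in contrast to the desaturases, was at 6.77 CPM in endothelial-like and 7.85 CPM in macrophage-like cells (-0.19). Srebf2, the uncalled member with the highest CPM, was at 26.0 CPM in endothelial-like and 61.8 CPM in macrophage-like cells (-1.22, -1.47 to -0.86 over hashtags).

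Since the median over all genes was 0.35 here, ratios were also centred on it. All 18 sterol enzymes lay below that median. Centring left Scd1 and Scd2 called higher, with 15.0% of all genes, and gave 6 members called lower, with 12.7% of all genes, which were Idi1, Fdps, Sqle, Cyp51, Msmo1 and Srebf2. Without A0312, 5 were called lower, with Mvd and Srebf2 added, where 10.1% of all genes were. Endothelial-like cells were shallower (median 12924 against 41439 counts), and among cells of 30000 to 80000 counts in both classes, 72 of them endothelial-like, Cyp51 and Dhcr7 were called lower (10.8% of all genes) and Stard4 and Scd2 higher (17.4%). There Msmo1 (-1.69), Scd1 (1.59) and Fdps (-0.82) missed the rule, the last also in the pool. Among the other pathway genes, 7 were called higher, led by Thrsp (5.48), a lipogenic regulator, Acacb (4.71) and Mylip (4.04), a ubiquitin ligase for lipoprotein receptors. Another 5 were called lower, among them Soat1 (-3.44) and Tmem97 (-1.81), which encodes a sterol-responsive membrane protein.

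Monocyte-like over macrophage-like cells gave no member called in either direction, where 5.49% of all 11252 genes were called higher and 3.63% lower, together 9.13%. All 5 fatty acid genes had ratios above 0, with a median of 0.61 against 0.13 over all genes, and 13 of 18 sterol enzymes lay below 0, with a median of -0.33. Scd1 was at 2.58, 9.00, 9.54 and 9.16 CPM in monocyte-like cells of the 4 hashtags, against 2.62, 2.45, 2.12 and 2.29 CPM in macrophage-like cells. It was higher in A0310, A0311 and A0312 and level in A0309, so that it was called higher without A0309, as were 6.43% of all genes. Hsd17b7, a ketosteroid reductase, was at 6.88, 5.04, 7.63 and 2.38 CPM in monocyte-like cells, against 16.0, 14.1, 15.9 and 11.7 CPM in macrophage-like cells (log2 ratio -1.17), and a ratio of -0.97 in A0311 kept it from being called. It was called with ratios centred on the median of all genes, where 4.41% of genes were called higher and 4.56% lower. Srebf2, the uncalled member with the highest CPM, was at 85.4 CPM in monocyte-like and 61.8 CPM in macrophage-like cells. The monocyte-like cells also held macrophage markers (5568 CPM over 8 genes, against 9793 CPM in macrophage-like cells), more than their 3184 CPM of 7 monocyte markers, and mast cell markers (140 CPM over 4 genes, against 0.12 CPM). They further held dendritic cell markers (401 CPM over 8 genes, against 12.3 CPM in macrophage-like cells). Their MHC class II genes summed to 22547 CPM over 5 genes, against 5878 CPM in macrophage-like and 29224 CPM in dendritic-cell-like cells. Their median depth was 19140 counts, against 41439 in macrophage-like cells, and the part of these in the ratios was not tested. Of the other pathway genes 3 were called lower, Soat1 (-1.35), Cyb5r3 (-1.25) and the desaturase gene Fads1 (-1.20).

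**Figure D3:**
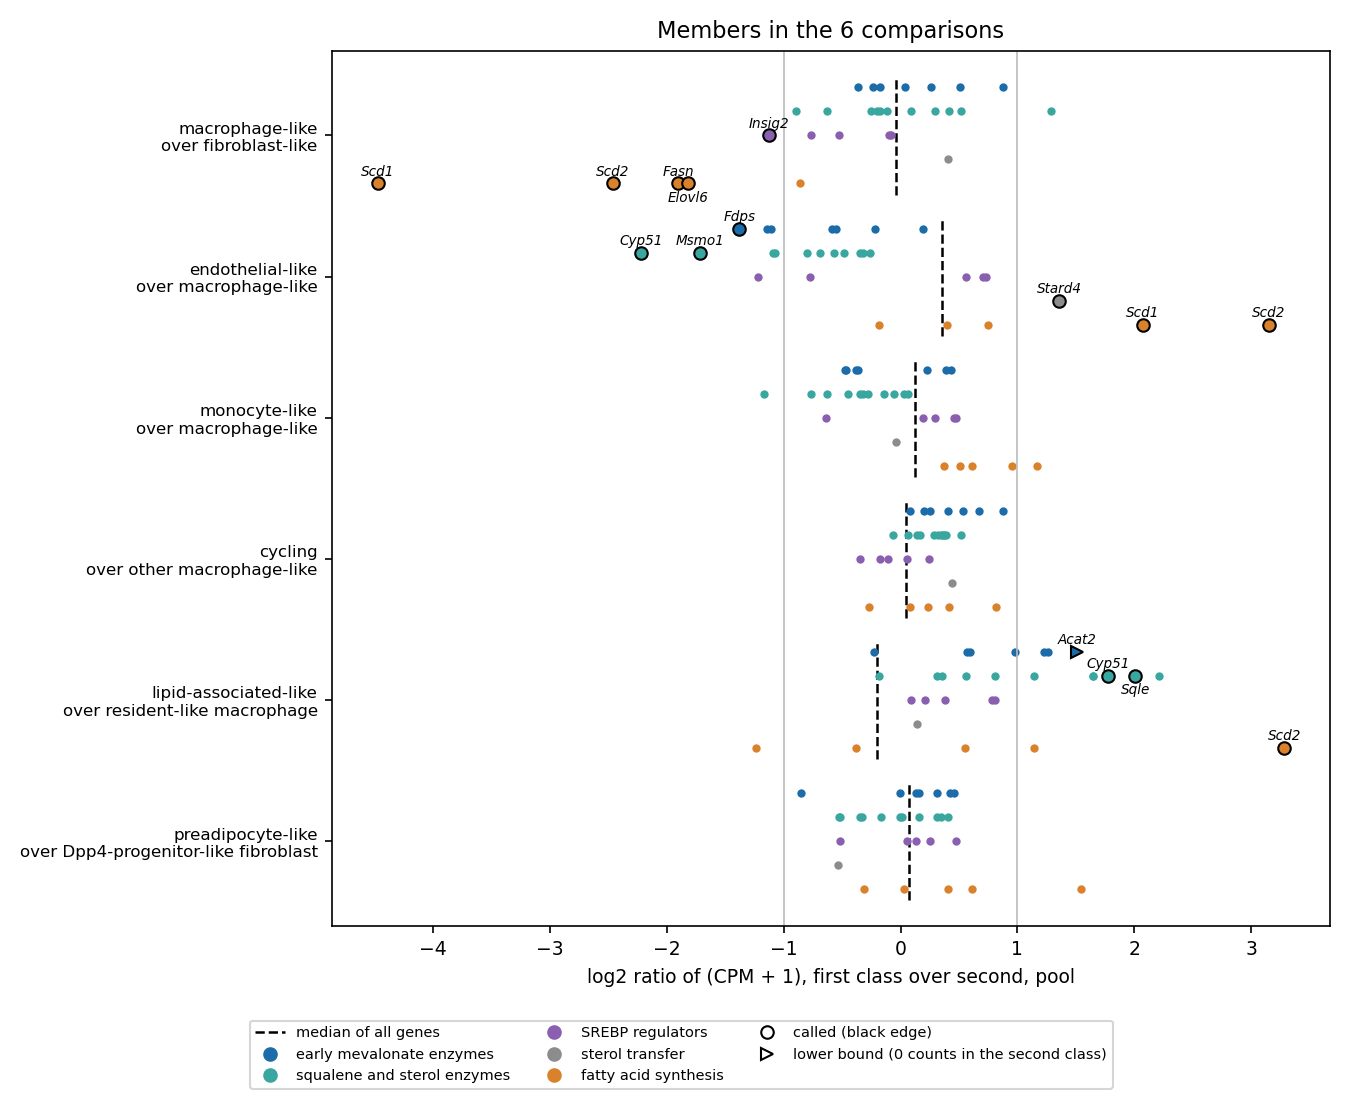
Log2 ratios of the 29 members in 6 comparisons. Each row is a comparison, the horizontal axis is the log2 ratio of CPM plus 1, points are genes coloured by role, a black edge marks a called member, a triangle a lower bound and the dashed line the median over all genes tested. Fatty acid genes lie left of 0 in macrophage-like over fibroblast-like cells, sterol enzymes lie left of the dashed line in endothelial-like over macrophage-like cells, and most members lie right of 0 in lipid-associated-like over resident-like macrophages.

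Among macrophage states, 1094 lipid-associated-like cells, which express Gpnmb, Spp1 and Ctsk, were set against 97 resident-like cells, which express Lyve1, Folr2 and Cd163. The sterol enzymes summed to 455 CPM in lipid-associated-like cells (415 to 504 over 4 hashtags), against 238 CPM in resident-like cells (198 to 267 over 3 hashtags), and the ranges did not overlap. A0312, with 15 resident-like cells, was not used in the rule. Of the 18 enzymes, 16 had ratios above 0, with a median of 1.06 against -0.20 over all genes, and 11 were above 0 in the pool and in all 3 hashtags, as were 21.4% of all genes. The rule called 4 members higher, where it called 4.5% of all 11131 genes higher, and no member lower, where it called 7.08% lower.

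Acat2, the thiolase that opens the pathway, had 525 counts in lipid-associated-like cells and 0 in resident-like cells, so that its level of 6.25 CPM was at least 4.05-fold higher than the 1.54 CPM that a count of 0 (3 counts over the group) allows. Scd2 had 1155 counts in lipid-associated-like cells and 1 in resident-like cells, a ratio of 26.8 with an exact interval of 4.79 to 1057.5. Sqle, squalene epoxidase, was at 25.6, 29 and 26.3 CPM in lipid-associated-like cells of A0309, A0310 and A0311, against 5.14, 0 and 1.41 CPM in resident-like cells (log2 ratio 2.01). Cyp51 was at 43.3, 38.6 and 37.4 CPM in lipid-associated-like cells, against 18.8, 0 and 8.47 CPM in resident-like cells (1.78). Both genes had higher values in each of these hashtags, at 20 to 33 resident-like cells a hashtag. The resident-like cells held 1945633 counts in all, so their values by hashtag rest on few counts. A value of 0 there does not mean absence, and no interval of these 2 ratios was computed.

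Msmo1, the uncalled member with the highest CPM, was at 77.6 CPM in lipid-associated-like and 24.2 CPM in resident-like cells (1.64, 0.73 to 3.03 over hashtags). Fdft1, squalene synthase, was at 15.5 CPM in lipid-associated-like and 2.57 CPM in resident-like cells (2.21) and missed the rule in A0310, where the ratio was 0.82. Insig1 and Ebp, a sterol isomerase, differed little, with ratios of 0.09 and -0.18. Scd1 was at 2.05 CPM in lipid-associated-like and 6.17 CPM in resident-like cells, with hashtag ratios from -2.18 to 1.81, so its direction was not the same across hashtags. Of the other pathway genes 4 were called higher and none lower, namely Me1 (431 against 0 counts, at least 3.33-fold), Abcg1 (2.01), the liver X receptor gene Nr1h3 (1.73) and Soat1 (1.56).

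With ratios centred on the median of all genes, 6 members were called higher, with Fdft1 and Hsd17b7 added, where 5.56% of all genes were called higher and 5.14% lower. Without A0310 9 members were called higher (5.95% of all genes) and Scd1 lower (11.2%), and without A0311 7 were called higher (6.49%). With finer sub-clusters (158 resident-like cells) 4 members were called higher (2.56% of all genes), of which only Cyp51 was shared. There Acat2, Sqle and Scd2 had log2 ratios of 0.84, 1.47 and 1.53 and missed the rule. The bound of 4.05-fold for Acat2 therefore describes the 97 resident-like cells of the main clustering only. Depth differed between the states, with medians of 70732 and 14752 counts, and its part in these values was not tested, since cells of 30000 to 80000 counts gave no value here. Resident-like cells also held more monocyte markers (2834 CPM over 7 genes, against 148 CPM in lipid-associated-like cells), and the part of these in the result was not tested. The same list summed to 5623 CPM in fibroblast-like and 3184 CPM in monocyte-like cells, so it does not mark monocytes alone.

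Cycling cells were 2 macrophage-like sub-clusters that met fixed markers of DNA synthesis or mitosis. With both counted as a single group, most sterol enzymes had small ratios above 0 over the other macrophage-like cells. The sub-clusters did not share this direction equally. In the pool and every hashtag, 15 of 18 enzymes were above 0 in cells led by Hmga2, but 6 of 18 in cells led by Nusap1. Of the 18 sterol enzymes, 17 were above 0 in the pool, with a median of 0.33 against 0.04 over all genes, and 11 were above 0 in every hashtag as well, where 40.4% of all genes were. No member was called, where 3.91% of all 10478 genes were called higher and 0.639% lower. Acat2 had the largest ratio, at 15.7, 9.43, 12.1 and 12.6 CPM in cycling cells of the 4 hashtags, against 7.5, 6.5, 6.48 and 5.58 CPM in other macrophage-like cells (0.88, 0.48 to 1.05 over hashtags). Every cycling value of Acat2 lay above every other value. Fdps was at 97.7, 45.3, 65.7 and 53.6 CPM in cycling cells, against 49.6, 39.7, 41.4 and 36.4 CPM in other macrophage-like cells (0.67), and here the groups overlapped. Fasn was at 12.0 CPM in cycling and 6.39 CPM in other cells (0.81), and Msmo1, the uncalled member with the highest CPM, was at 81.1 CPM in cycling and 64.9 CPM in other cells (0.32). Insig2 (-0.35) and Scap (-0.18) were below 0 in every hashtag.

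The cycling cells were 842 cells led by Hmga2 and 873 cells led by Hist1h2ap and Nusap1, here Nusap1-led, and the markers did not divide them into phases. The 13 mitosis genes summed to 172 CPM in Hmga2-led and 3276 CPM in Nusap1-led cells, against 90.4 CPM in other macrophage-like cells. The 12 DNA-synthesis genes summed to 1264 CPM in Hmga2-led and 1778 CPM in Nusap1-led cells, against 519 CPM in other cells, and the histone gene found was at 5.64 and 888 CPM in these sub-clusters, against 0.66 CPM. Both lists were thus higher in the Nusap1-led cells, and the Hmga2-led cells are called by their leading gene. The MHC class II genes also differed, at 732 CPM in Hmga2-led and 2957 CPM in Nusap1-led cells, against 7251 CPM in other cells, and the 13 lipid-associated genes stood at 22684, 17435 and 21981 CPM in the same order. The part of these in the ratios below was not tested.

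Over the other macrophage-like cells, 15 of 18 sterol enzymes were above 0 in the pool and every hashtag in Hmga2-led cells (35.1% of all genes were), with a median of 0.48, against 6 of 18 in Nusap1-led cells (38.1% of all genes), with a median of 0.10. Their summed level was 609 CPM in Hmga2-led cells (535 to 716 over hashtags), 507 CPM in Nusap1-led cells (395 to 644) and 432 CPM in other macrophage-like cells (397 to 487). The Hmga2-led range lay above that of the other cells, and the Nusap1-led range overlapped both. Hmgcs1 was at 72.0 CPM in Hmga2-led and 48.6 CPM in Nusap1-led cells, against 55.6 CPM in other cells, so the sub-clusters lay on opposite sides. Sqle was at 28.7 CPM in Hmga2-led and 18.4 CPM in Nusap1-led cells, against 17.6 CPM in other cells. Fdft1 and Ebp had the other order, at 20.3 and 65.2 CPM in Hmga2-led cells and 23.5 and 79.4 CPM in Nusap1-led cells.

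Fasn had a ratio of 1.01 in Hmga2-led cells, where hashtag ratios ran from 0.83 to 1.16, and of 0.63 in Nusap1-led cells. No member was called higher in either sub-cluster, where 0.864% of all genes were in Hmga2-led and 5.31% in Nusap1-led cells. Insig2 was below 0 in every hashtag of both. The only other pathway gene called in cycling cells was Abca1, a cholesterol exporter, which was lower (-1.60). Cycling cells were deeper, at a median of 56025 against 38157.5 counts, and the part of depth in these ratios was not tested.

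**Figure D4:**
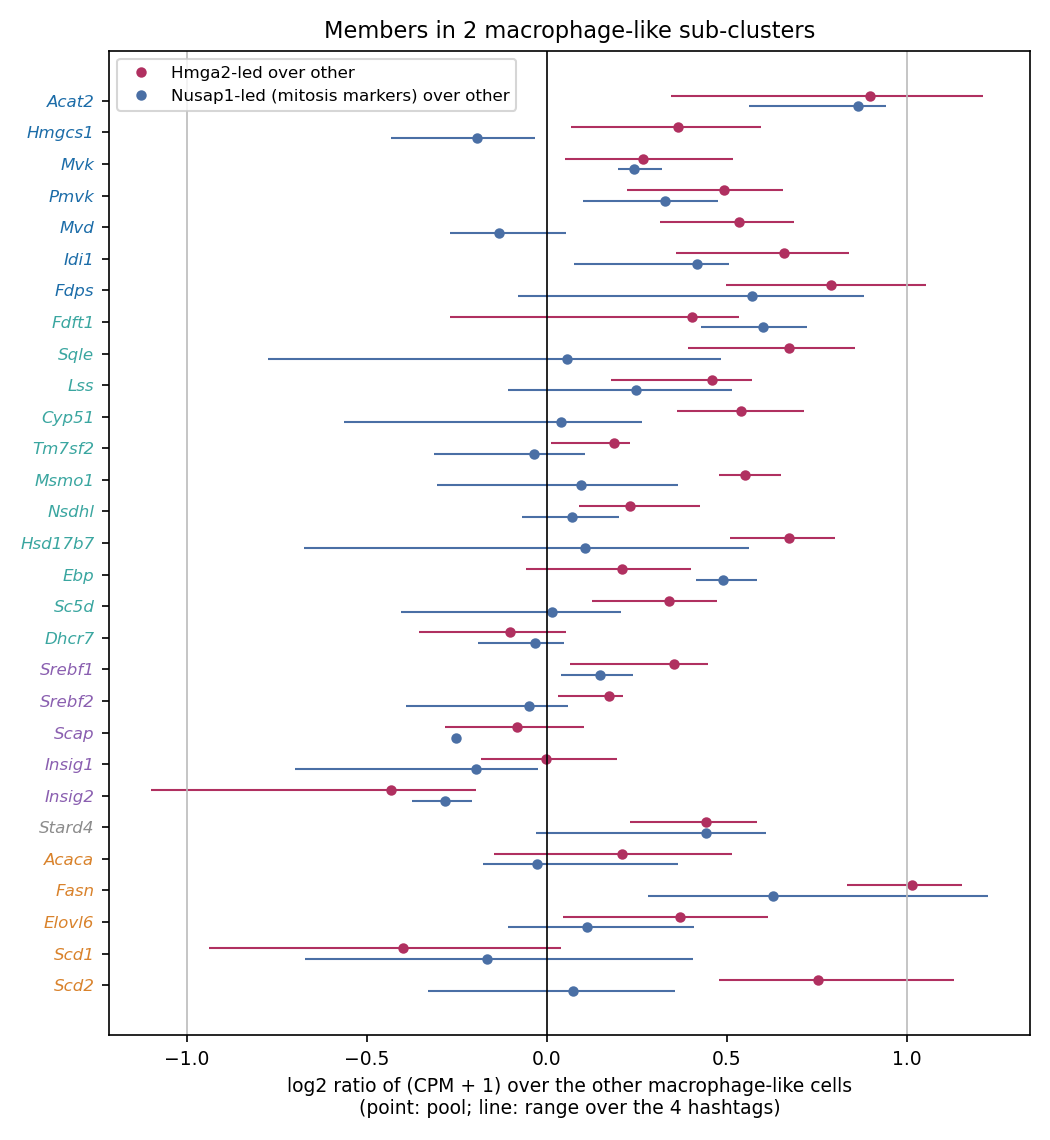
Log2 ratios of the members in Hmga2-led and Nusap1-led macrophage-like cells, each over the other macrophage-like cells. Points are pooled values, lines run from the lowest to the highest of 4 hashtags, and rows are genes grouped by role. Most sterol enzymes lie further right in Hmga2-led cells, Hmgcs1 lies on opposite sides of 0 in the sub-clusters, and Insig2 lies left of 0 in both.

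Over the 11 macrophage-like sub-clusters, the summed sterol enzyme level ran from 238 CPM in the resident-like sub-cluster (97 cells) to 609 CPM in Hmga2-led cells. Between them, sub-clusters of MHC class II cells alone spread from 308.6 CPM (1093 cells led by Tmem176a) to 517 CPM (769 cells led by Gm24187). Within the group, Fdps, Acat2, Idi1 (isopentenyl diphosphate isomerase) and Cyp51 followed the mean of the other sterol enzymes most closely (Spearman's correlation 0.98, 0.95, 0.94 and 0.94 over 11 sub-clusters), and Tm7sf2 and Ebp least (0.38 and 0.48). Of the genes outside the sterol enzymes, the correlation with that mean was 0.87 for Scd2, 0.85 for Fasn, 0.76 for Elovl6, 0.70 for Srebf1, 0.59 for Srebf2 and 0.52 for Stard4, and it was 0.05 for Insig1, -0.03 for Acaca, -0.11 for Insig2, -0.21 for Scd1 and -0.27 for Scap. These correlations describe sub-clusters of a single library, and the sterol mean also followed the median depth of the sub-cluster (0.63).

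**Figure D5:**
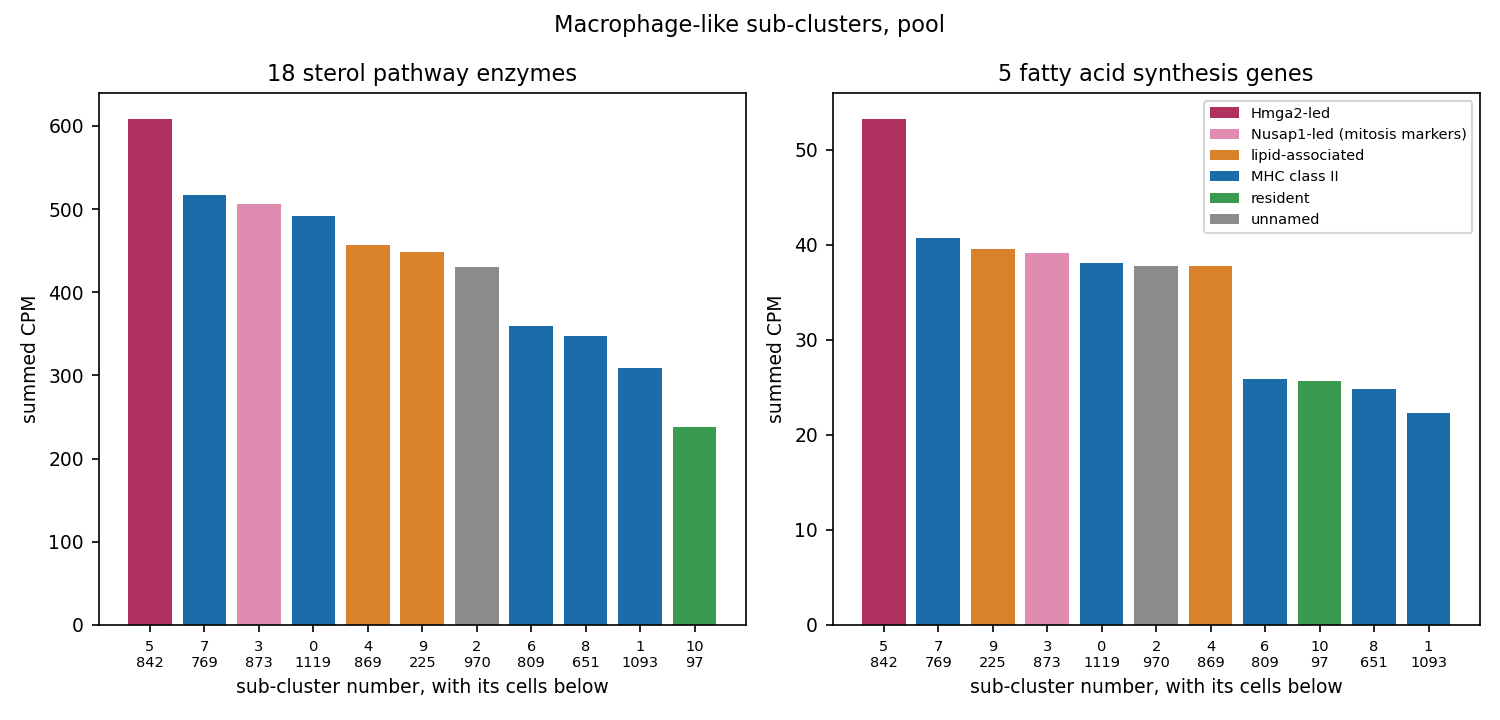
Summed level of the 18 sterol enzymes and of the 5 fatty acid genes in 11 macrophage-like sub-clusters. Bars are summed CPM from 0, coloured by state, with the sub-cluster number and its number of cells under each bar. The Hmga2-led sub-cluster is highest for both sums, at 609 and 53.3 CPM, and the resident-like sub-cluster is lowest for the sterol enzymes at 238 CPM.

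Among fibroblast-like cells, 281 preadipocyte-like cells, which express Pparg, Fabp4 and Cd36, were set against 985 Dpp4-progenitor-like cells, which express Dpp4, Pi16 and Cd55. A clear single hashtag was found for 18.9% of the preadipocyte-like and 17.8% of the Dpp4-progenitor-like cells, so the hashtag of most of them is unsure. No member was called, where 2.52% of all 11887 genes were called higher and 2.58% lower, together 5.11%. Scd1, also the uncalled member with the highest CPM, was at 80.6, 214, 231 and 156 CPM in preadipocyte-like cells of the 4 hashtags, against 54.6, 68.9, 67.6 and 51.7 CPM in Dpp4-progenitor-like cells. Each preadipocyte-like value lay above every Dpp4-progenitor-like value (pooled log2 ratio 1.54), but the ratio was 0.55 in A0309, and without that hashtag Scd1 was called higher, as were 3.24% of all genes. Fasn was at 62.9, 48.8, 51.2 and 48.1 CPM in preadipocyte-like cells, against 36.2, 31.7, 33.7 and 32.7 CPM in Dpp4-progenitor-like cells (0.61), and the groups did not overlap. Sterol enzymes showed no shared direction, 10 above and 8 below 0, with a median of 0.07, which was also the median over all genes. Insig2 was at 47.7 CPM in preadipocyte-like and 68.6 CPM in Dpp4-progenitor-like cells (-0.52) and below 0 in all 4 hashtags. The adipocyte gene Plin4 was at 32.0 CPM in preadipocyte-like and 0.28 CPM in Dpp4-progenitor-like cells, and Adipoq had 0 counts in the first. The part of adipocyte RNA in the Scd1 level was not tested. Of the other pathway genes 1 was called, Cyb5r3 (-1.28), which encodes an electron donor of desaturases.

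Other fibroblast-like sub-clusters spread more widely in sterol enzymes than these states. A sub-cluster of 153 cells led by Fosl1, Sema7a and Arc had the highest summed level, 666 CPM, with Cyp51 at 112 CPM, Idi1 at 66.6 CPM and Hsd17b7 at 60.5 CPM. A sub-cluster of 103 cells led by Chrdl1 and Fmo2 had the lowest, 249.2 CPM, with the same genes at 17.7, 7.69 and 9.4 CPM. Their median depths were 41831 and 32009 counts, and the part of depth in their difference was not tested. Over the 12 sub-clusters, Spearman's correlation of the sterol mean with median depth was -0.01. Spearman's correlation with the mean of the other sterol enzymes was 0.87 for Fdps and 0.86 for Hmgcs1, and -0.41 for Ebp, against 0.48 for Ebp in macrophage-like cells. Of the genes outside the sterol enzymes it was 0.82 for Stard4, 0.81 for Fasn, 0.80 for Elovl6, 0.79 for Srebf2 and 0.64 for Insig1, and 0.49 or less for the others.

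The sterol enzymes varied with the hashtag. A0309 had the highest summed sterol enzyme level in 5 of the 7 classes, and A0311 and A0312 in 1 each. In fibroblast-like cells 16 of the 18 enzymes were highest in A0309, and the sum was 557 CPM there against 349 CPM in A0310, a ratio of 1.59. In macrophage-like cells 14 of 18 were highest in A0309, with 548 CPM there against 421 CPM in A0312, a ratio of 1.30. The share of all genes that were highest in A0309 was not computed. A clear single hashtag was found for 19.2% of fibroblast-like and 94.1% of macrophage-like cells, so fibroblast-like values by hashtag are less sure. Hmgcs1 in fibroblast-like cells was at 93.3, 49.4, 68.4 and 56.8 CPM in A0309, A0310, A0311 and A0312. The fatty acid genes of fibroblast-like cells were highest in A0310 (229 CPM) and lowest in A0312 (193 CPM), while those of macrophage-like cells were highest in A0309 (41.3 CPM) and lowest in A0312 (33.4 CPM). Since no label ties a hashtag to a genotype, an animal or a day, these differences cannot be told apart from any of them.

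Some counts may hold transcripts of neighbouring genes. In the GENCODE vM21 annotation of GRCm38, Cyp51 (chromosome 5, 4081145 to 4104746, minus strand) overlaps Akap9 on the other strand, Fdft1 (chromosome 14, 63145150 to 63179578, minus strand) overlaps Ctsb on the other strand, and Tm7sf2 (chromosome 19, 6062821 to 6068373, minus strand) overlaps Vps51 on its own strand. Ctsb encodes a protease that is abundant in macrophages, and use of the strand in counting was not given in the sources used here. Scd1 (chromosome 19, 44394455 to 44407879, minus strand) and Scd2 (chromosome 19, 44293674 to 44306864, plus strand) are neighbouring paralogs whose identity was not computed here, and how the counting treated reads that match both is not known. Fasn (chromosome 11, 120805846 to 120824547, minus strand) and Insig1 (chromosome 5, 28071363 to 28078662, plus strand) overlap no other annotated gene.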

How the data were processed

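A single pool of stromal vascular cells gave a transcript and a hashtag library. Counts per gene and cell were deposited by the authors with a hashtag call in each cell's name, and the hashtag counts were deposited as a second table. The submitters' processing notes name the genome build GRCm38, the mapper Bowtie2 2.4.2, cutadapt 3.4, and R in versions 4.1.2 and 3.6.3. The main values used the authors' single-hashtag calls, because the stricter tag rule (at least 10 tag counts, 75% from 1 hashtag) removed most fibroblast-like cells. Cells with fewer than 200 genes or more than 25% mitochondrial counts and the 367 doublets that the authors named were removed, and no other doublet caller was run.

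Cells were scaled to 10000 counts, log transformed and clustered on 2000 variable genes, 30 principal components and 20 neighbours by Leiden at resolution 1.0, with the 29 members and 29 other pathway genes left out (Python 3.11.15, scanpy 1.11.5, leidenalg 0.10.2). A cluster was named where at least 3 markers of a class were each found in 25% of its cells and raised by 1 on the log2 scale, a scoring rule chosen after the data were seen. A group of 46 fibroblast-like cells led by another class's genes and 17 mesothelial cells were left out. The members and lists were chosen with earlier results of these data known. In each comparison the text names every called member, the uncalled member with the highest CPM and up to 3 called pathway genes of the largest ratio in each direction, except 1 gene that is not reported here, and others singled out were chosen after their values were seen. Protein sequences, planned for paralogous members, were not used here. Alternatives changed the cells, the pseudocount of 1 CPM, the averaging, the centring, the size, the hashtags and the clustering resolution.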

Additional observations from a re-analysis of the deposited data

Results flagged for a closer look

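An unnamed cluster outside the comparisons, with 30 cells led by Gja4, Rassf9 and Hey1, had 1 member whose 95% interval lay above the level of the highest named class. Insig2, which retains the SREBP complex in the endoplasmic reticulum, was at 75.5 CPM there (95% exact Poisson interval 61.7 to 91.6, counting error only), against 59.8 CPM in fibroblast-like cells. Elovl6 was also above its highest named class there, at 28.6 CPM, against 21.6 CPM in fibroblast-like cells, but its interval (20.3 to 39.1) included that level.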

How the results depend on the processing

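Over 2610 combinations of a member and an alternative, 2531 kept their direction and call, 13 lost a call, 66 gained one and 0 reversed. Most of the 2531 were members without a call in the main values that stayed uncalled, so this number says little of the calls themselves. In endothelial-like over macrophage-like cells, Fdps (log2 ratio -1.21) and Scd1 (1.30) lost their calls with a pseudocount of 5 CPM. Msmo1 (-1.47) lost its call there with the mean over cells. Counts of called members moved as follows, and where the setting itself does not show it the cause was not tested. The share of all genes called stands in parentheses. At a size of 0.5 in place of 1, macrophage-like over fibroblast-like cells had 2 members higher (23.7%) and 8 lower (28.1%), endothelial-like over macrophage-like cells 8 lower (14.9%), monocyte-like over macrophage-like cells 2 lower (8.47%), cycling over other macrophage-like cells 1 higher (8.76%), lipid-associated-like over resident-like cells 11 higher (8.8%), and preadipocyte-like over Dpp4-progenitor-like cells 2 higher (6.77%) and 1 lower (5.3%). Ratios centred on the median of all genes gave 6 lower in endothelial-like (12.7%) and 1 lower in monocyte-like cells (4.56%). Without the deepest cells (above the 95th percentile of counts) 5 were lower in endothelial-like cells (9.67%), and the mean over cells gave 8 higher in lipid-associated-like cells (4.85%). In preadipocyte-like cells, cells with a clear single hashtag gave 1 higher (Scd1; 8.08%) and 1 lower (Lss; 7.3%), finer sub-clusters gave 1 higher (Scd1; 2.09%), and cells of 30000 to 80000 counts gave 1 higher (Scd1; 2.79%).

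Leaving out each hashtag in turn gave 0 to 1 higher in macrophage-like over fibroblast-like cells (14.2% to 14.6%), 3 to 5 lower in endothelial-like cells (10% to 10.3%), 0 to 1 higher (5.93% to 6.43%) and 0 to 1 lower (4.03% to 4.19%) in monocyte-like cells, 4 to 9 higher (4.69% to 6.49%) and 0 to 1 lower (7.33% to 11.2%) in lipid-associated-like cells, and 0 to 1 higher in preadipocyte-like cells (3.03% to 3.29%). Cycling cells had no member called against lipid-associated-like cells alone (5.26% higher, 0.61% lower) or among cells of 30000 to 80000 counts (3.2% and 0.344%). Since no member was called with all cells either, these zeros say nothing of state or depth. The limits of 30000 to 80000 counts and the comparison of cycling with lipid-associated-like cells alone were chosen after seeing the data. The limits gave no value for lipid-associated-like over resident-like cells, where 97 resident-like cells also limit what the depth can show. No paired analysis was possible because the hashtags divide 1 pool and no label gives replicates.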
